A study of Mus musculus with 14 samples.

Results

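C-type lectin receptors are surface proteins of myeloid cells that bind sugars and related ligands, and the 10 genes followed here encode receptors of monocytes, macrophages, neutrophils and dendritic cells. They were chosen by symbol, with earlier results of these data known. The genes are Clec4n, Clec4d, Clec4e, Clec5a, Clec7a, Cd209a, Clec4a1, Clec4a2, Clec4a3 and Clec12a. All 10 were among the 13406 genes of the doxycycline experiment, and 9 of the 10, without Cd209a, were among the 14563 genes of the Id2 experiment. After 4 days of doxycycline, 9 of the 10 rose in limma without a term for the pair, where 31.3% of all genes did. Among the 9, Cd209a and Clec4a3 passed the filter on low genes only through the treated libraries. Clec12a did not pass that test, but passed in limma with a term for the pair (adjusted p = 0.037). After Id2 transduction 0 of the 9 measured receptors passed in limma, with or without a term for the replicate. Without that term 0.0137% of all genes rose, and 0 of the 9 receptors had an unadjusted p under 0.05.

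RNA was sequenced from primary acute myeloid leukaemia (AML) cells of the mouse strain given as C57/BL6. In every group the leukaemia had been started by a retrovirus with MLL-AF9 under Tet-Off control and a dsRED reporter, and by another with NRASG12D and the Tet-Off activator. Foetal liver cells carrying both were given to lethally irradiated congenic mice, and leukaemic spleens were the source of the cells. The first experiment set 4 libraries of cells treated with doxycycline in vitro for 4 days (DOX), which switches MLL-AF9 off, against 4 libraries of untreated cells (UT). The second set 3 libraries of cells transduced with an Id2-GFP retrovirus (Id2) against 3 libraries of cells with a control-GFP retrovirus (CNT), all sorted for GFP 2 days after transduction. The ages of the animals and the number of animals behind the libraries are not given in the sources used here. DOX and UT libraries carry the same 4 pair labels, TRIMA2-M1B1, TRIMA2-M3B1, TRIMA2-M4B1 and TRIMA1-M4B1, called pairs 1 to 4 below, and values of a group are given in that order. Cells without the Tet-Off vector were not analysed here, so an action of doxycycline itself and the loss of MLL-AF9 cannot be told apart.

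Several of these receptors carry no signalling motif of their own. Dectin-2 (Clec4n) and Mincle (Clec4e) act through the adaptor FcRγ (Fcer1g), and MDL-1 (Clec5a) acts through DAP12 (Tyrobp). Dectin-1 (Clec7a) carries an activating motif in its own tail. All of these engage the kinase SYK, and from there CARD9 and NF-κB, which drive cytokine genes. Others hold cells back: DCIR1 (Clec4a2) and MICL (Clec12a) carry an inhibitory motif that recruits the phosphatases SHP-1 (Ptpn6) and SHP-2 (Ptpn11). Human CLEC12A is known as a surface antigen of AML blasts.

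Promoter windows, from 250 bases before to 50 bases after a start site, were taken from RefSeq on GRCm38.p6, which held 9 of the 10 genes. Those of 2 pairs of neighbouring genes are shown, since the genes of each pair changed by different amounts: Clec4d (chr6:123261857-123262156, plus strand) with Clec4e (chr6:123289822-123290121, minus strand), and Clec12a (chr6:129349994-129350293, plus strand) with Clec7a (chr6:129472730-129473029, minus strand). The RefSeq start of Clec12a used here lies within the GENCODE M21 gene, downstream of the start given there. Capitals mark matches on either strand to GAGGAA, the core bound by PU.1, to TTGCNNAA, a C/EBP site, and to TGANTCA, an AP-1 site.
Clec4d: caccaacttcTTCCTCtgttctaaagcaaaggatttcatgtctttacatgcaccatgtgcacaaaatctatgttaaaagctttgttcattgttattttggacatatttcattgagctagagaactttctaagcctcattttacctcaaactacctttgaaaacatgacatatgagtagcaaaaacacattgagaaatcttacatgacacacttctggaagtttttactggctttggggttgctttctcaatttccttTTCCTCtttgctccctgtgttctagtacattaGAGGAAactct
Clec4e: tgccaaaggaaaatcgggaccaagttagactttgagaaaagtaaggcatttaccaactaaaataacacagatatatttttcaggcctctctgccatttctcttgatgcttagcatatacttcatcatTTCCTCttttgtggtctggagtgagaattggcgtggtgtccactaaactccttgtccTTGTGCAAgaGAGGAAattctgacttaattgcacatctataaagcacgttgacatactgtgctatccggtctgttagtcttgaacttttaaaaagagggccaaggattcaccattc
Clec12a: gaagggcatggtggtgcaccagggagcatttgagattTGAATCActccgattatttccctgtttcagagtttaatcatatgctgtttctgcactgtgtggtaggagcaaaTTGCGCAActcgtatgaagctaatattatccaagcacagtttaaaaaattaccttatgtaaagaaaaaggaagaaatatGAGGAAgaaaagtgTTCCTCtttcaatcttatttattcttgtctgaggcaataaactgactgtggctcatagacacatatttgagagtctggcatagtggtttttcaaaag
Clec7a: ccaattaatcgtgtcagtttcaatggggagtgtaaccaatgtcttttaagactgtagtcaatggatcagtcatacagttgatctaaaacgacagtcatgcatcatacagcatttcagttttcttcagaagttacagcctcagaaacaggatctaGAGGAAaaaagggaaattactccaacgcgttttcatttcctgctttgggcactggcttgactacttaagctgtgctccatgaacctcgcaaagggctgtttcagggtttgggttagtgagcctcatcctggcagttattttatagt
GAGGAA was present in the first listed window of 6 of the 9 genes, against 28.3% of 27025 windows of 300 bases, 1 per gene. TTGCNNAA was present in 2 of the 9, those of Clec4e and Clec12a, against 10.8% of windows, and TGANTCA in 2, those of Clec4a2 and Clec12a, against 7.93%. The Clec12a window thus held a match to each of the 3 motifs, and the Clec7a window held a single GAGGAA at position −96 from its start. The general E-box CANNTG, the kind of site bound by the E-proteins that ID2 inhibits, was present in 8 of the 9 windows against 72.1% of all, and CAGCTG in 0 of the 9 against 16.1%. The motifs do not overlap in the printed windows, and a match is only a match of letters.

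The tabled genes held 17922644 to 25959766 reads a library in the doxycycline experiment and 14051150 to 14948487 in the Id2 experiment. Values are CPM, reads scaled by the authors to a common library size. The labels were checked by the targeted genes. Mll1 averaged 128 ± 13.2 CPM in DOX and 3901 ± 1931 CPM in UT libraries (SD, n = 4 each), and Id2 averaged 1283 ± 339.7 CPM in Id2 and 36.2 ± 13.6 CPM in CNT libraries (SD, n = 3 each). Itgam and Ptprc, surface markers of myeloid cells and of leukocytes, were at 2844 and 769.9 CPM in DOX and at 1003 and 383 CPM in UT libraries on average. Not all such markers rose. Of 10 genes listed as leukaemia and myeloid markers, 6 were higher and 3 lower in DOX (6 and 4 with a term for the pair). Over all genes, 31.3% were higher and 33.8% lower. In the doxycycline experiment 4198 of 13406 genes were higher and 4535 lower, so that 48.1% of calls were higher, and 28.1% when libraries were scaled by their totals, which moved the median change of all genes from −0.03 to −0.27 on the log2 scale.

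Of the 10 receptor genes, 9 were higher in DOX than in UT libraries at an adjusted p under 0.05 (limma, adjusted over all genes), where 31.3% of all genes were higher and 33.8% lower. All 9 were at least 2-fold higher, a size reached by 10.1% of all genes, but the log2 change of Clec4e was 0.80 with library totals and 0.94 with quantile normalization, under that size. For all 9 the DOX and UT libraries did not overlap, as for 28.9% of all genes in that direction and 31.1% in the other. The median change of the 10 genes was 2.84 on the log2 scale, against −0.03 for all genes. Cd209a and Clec4a3 were under 1 CPM in every UT library, at most 0.814 and 0.860 CPM. They passed the filter on low genes only through the DOX libraries, so their rise adds no support to these counts or to the median. In these bulk samples, a change in RNA per cell and a change in the share of cells that express a gene cannot be told apart.

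**Figure D1:**
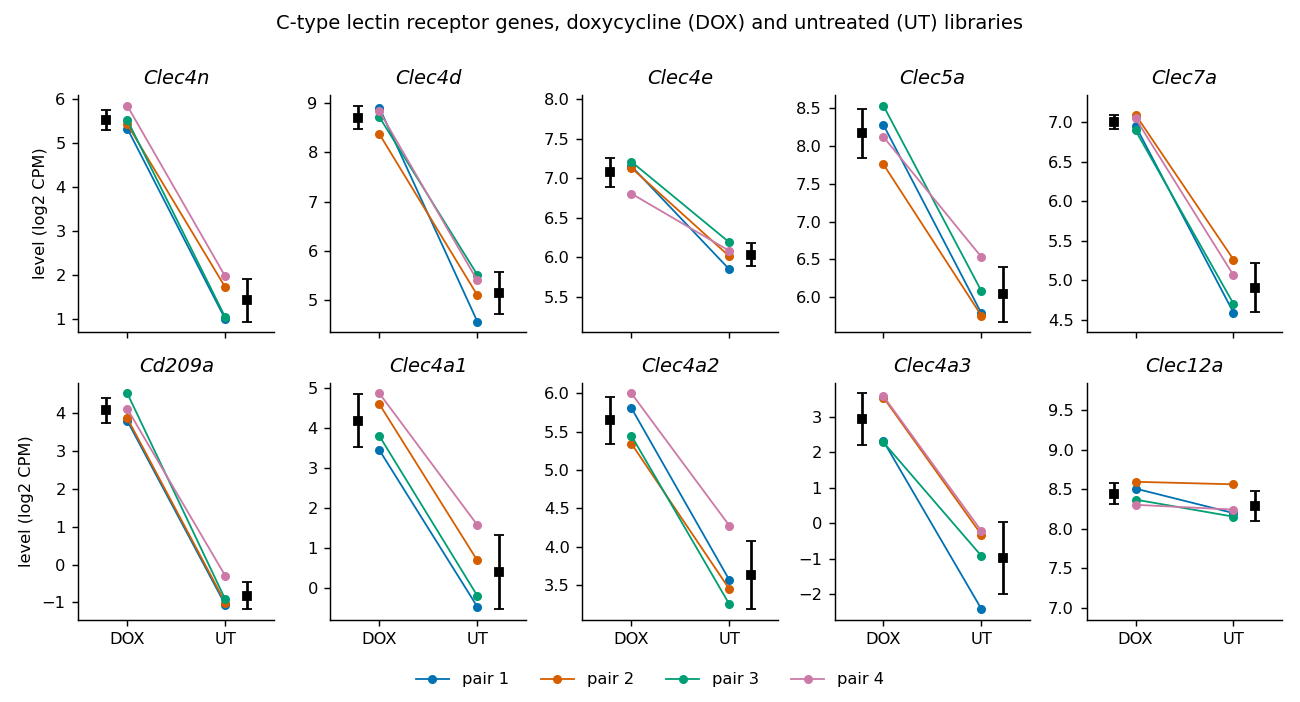
Level of each receptor gene (log2 CPM, vertical axis, own range per panel) in DOX (left) and UT (right) libraries, with a line joining the libraries of a pair and black squares with bars for the mean and SD (n = 4). In 9 panels every DOX point lies above every UT point, and in the Clec12a panel the groups overlap.

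Clec4n, at chr6:123229843-123247021, encodes Dectin-2, a receptor for fungal mannans. It was at 39.9, 42.7, 45.6 and 57.1 CPM in DOX libraries, against 1.98, 3.27, 2.04 and 3.88 CPM in UT libraries. The lowest DOX library was far above the highest UT library, and pair 4 was the highest of both groups. The log2 change was 4.10 ± 0.22 (SE), a 17.2-fold higher level (adjusted p = 6.7e-07).

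Clec4d, at chr6:123262111-123275265, encodes MCL, which senses mycobacterial glycolipid and pairs with Mincle. It reached 479.9, 332, 422 and 458 CPM in DOX libraries, against 23.7, 34.3, 45.7 and 42.1 CPM in UT libraries. Every DOX library stood well above all UT libraries, and in pair 1, which was highest among the DOX and lowest among the UT libraries, the difference was widest. The change was 3.57 ± 0.20, or 11.8-fold (adjusted p = 7.2e-07).

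Clec4e, at chr6:123281789-123289870, encodes Mincle, a receptor for mycobacterial cord factor and for a protein released by dying cells. It was at 142, 140.3, 148 and 112 CPM in DOX libraries, against 57.7, 64.6, 73.0 and 67.8 CPM in UT libraries. The groups did not overlap, but they lay closer together than for the other genes that passed. The change was 1.04 ± 0.10, or 2.06-fold (adjusted p = 1.4e-05), with a 95% interval of 0.82 to 1.26 that lies below that of Clec4d, 3.12 to 4.01. Clec4d and Clec4e lie 6.52 kb apart on opposite strands. Reads on Clec4d were 2.36 to 4.09 times those on Clec4e in the DOX libraries and 0.410 to 0.626 times in the UT libraries. These are ratios of reads, and per length of exon Clec4d was the higher of the pair in the mean of DOX and of UT libraries.

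Clec5a, at chr6:40574894-40585821, encodes MDL-1, a receptor of monocytes and neutrophils known for binding dengue virus. It was at 309, 215, 368 and 277 CPM in DOX libraries, against 55.4, 54.2, 67.8 and 92.6 CPM in UT libraries. All DOX libraries were above all UT libraries, with pair 3 highest in DOX and pair 4 highest in UT. The change was 2.12 ± 0.20, or 4.35-fold (adjusted p = 1.2e-05).

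Clec7a, at chr6:129461591-129472779, encodes Dectin-1, the receptor for fungal β-glucan. It was at 124, 137, 119 and 132 CPM in DOX libraries, against 24.1, 38.4, 26.1 and 33.5 CPM in UT libraries. The groups were far apart and the DOX libraries were close to each other. Its change was 2.09 ± 0.13, or 4.26-fold (adjusted p = 1.4e-06). The annotation lists this gene as a polymorphic pseudogene, a class for genes that are intact in some strains only.

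Cd209a, at chr8:3743397-3748984, is a mouse relative of human DC-SIGN and is known from monocyte-derived dendritic cells. It was at 13.9, 14.5, 22.9 and 17.3 CPM in DOX libraries, against 0.479, 0.498, 0.529 and 0.814 CPM in UT libraries. The DOX values rest on 271 to 399 reads per library and the UT values on 10 to 17, so the groups were widely separated although the gene was low. The change of 4.89 ± 0.22, or 29.7-fold (adjusted p = 3.3e-07), depends on the small constant added before the log. With a pseudocount of 1 CPM it was 3.50, below the 3.66 of Clec4n and the 3.53 of Clec4d, and the change of Clec4a3 was 2.47.

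Clec4a2, at chr6:123106428-123143999, encodes the inhibitory receptor DCIR1. It was at 55.9, 40.6, 43.6 and 63.9 CPM in DOX libraries, against 11.8, 10.9, 9.49 and 19.3 CPM in UT libraries. The groups did not overlap, and pair 4 was highest in both. The change was 2.02 ± 0.22, or 4.04-fold (adjusted p = 3.6e-05).

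Clec4a1, at chr6:122921848-122934619, encodes DCIR4. It was at 10.9, 24.2, 14.0 and 29.2 CPM in DOX libraries, against 0.729, 1.62, 0.881 and 3.00 CPM in UT libraries. Pairs 2 and 4 were the higher ones in both groups, and the groups did not overlap. The change was 3.77 ± 0.46, or 13.6-fold (adjusted p = 7.5e-05), and within pairs it ranged from 3.28 to 3.99.

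Clec4a3, at chr6:122952515-122969875, encodes DCIR3. It was at 4.97, 11.7, 4.86 and 12.0 CPM in DOX libraries, against 0.188, 0.801, 0.529 and 0.860 CPM in UT libraries. As for Clec4a1, pairs 2 and 4 were above pairs 1 and 3 in both groups, and the groups did not overlap. The change was 3.90 ± 0.52, or 14.9-fold (adjusted p = 1.2e-04), with 4 to 18 reads per library behind the UT values. Transcripts of Clec4a1, Clec4a2 and Clec4a3 share stretches with 73.7 to 79.3% identity, and Clec4a2 shares 436 bases at 96.3% identity with Clec4b1, so the authors' counting may have split or dropped reads between these genes and their separate values are uncertain.

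Clec12a, at chr6:129342691-129365303, encodes the inhibitory receptor MICL. It was at 364, 387, 331 and 316 CPM in DOX libraries, against 294, 378, 285 and 303 CPM in UT libraries. The groups overlapped, because UT library 2 was above every DOX library but that of its own pair. The change was 0.15 ± 0.10 with a 95% interval of −0.07 to 0.38 (adjusted p = 0.192), which leaves a rise of at most 1.30-fold within the interval. DOX was higher than UT in 4 of 4 pairs, by 0.03 to 0.31, and with the replicate block, a term for the pair, the gene passed the test at the same change of 0.15 (adjusted p = 0.037). It also passed without UT library 2 (0.25, adjusted p = 0.019) or without pair 2 (0.20, adjusted p = 0.031), and with library totals its change was −0.09.

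**Figure D2:**
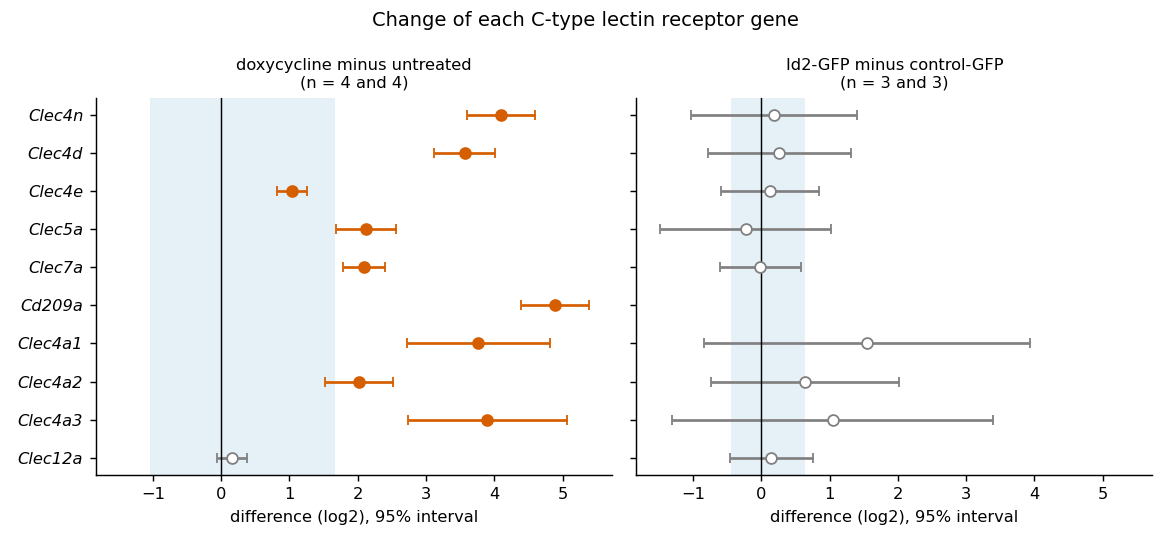
Difference in log2 CPM between DOX and UT (left, n = 4 and 4) and between Id2 and CNT (right, n = 3 and 3) for each receptor gene, with 95% intervals. Filled points passed the test and the blue band holds the middle 90% of all genes. After doxycycline 8 of the 10 points lie above the band, Clec4e and Clec12a lie inside it, and after Id2 no point is filled.

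Compared per length of exon, the receptors changed places (the plot of levels by group). Clec12a was at 63.2 ± 5.79 CPM per kb in DOX and 57.0 ± 7.74 CPM per kb in UT libraries (SD, n = 4 each), the highest of the 10 genes in UT. It held 9.70 to 14.2% of their summed level in DOX libraries, against 38.1 to 49.0% in UT libraries. Clec4d came first in DOX libraries with 264 ± 40.9 CPM per kb and 42.3 to 51.0% of the sum, and second in UT libraries with 22.8 ± 6.11 CPM per kb. The summed level of the 10 genes was 559 ± 46.6 CPM per kb in DOX and 130.3 ± 15.4 CPM per kb in UT libraries.

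In DOX libraries the order per length was Clec4d, Clec5a, Clec12a, Clec7a, Clec4n, Clec4e, Clec4a2, Clec4a1, Cd209a and Clec4a3. Library ranges of neighbours in that order overlapped for Clec5a and Clec12a, for Clec4n and Clec4e, and for the last 4 genes. In UT libraries the order was Clec12a, Clec4d, Clec5a, Clec4e, Clec7a, Clec4a2, Clec4n, Clec4a1, Clec4a3 and Cd209a. There only Clec12a, Clec7a and Clec4a2 were apart from the gene that followed, and the ranges of the other neighbours overlapped. Clec4n was the fifth in DOX libraries and the seventh in UT libraries.

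**Figure D3:**
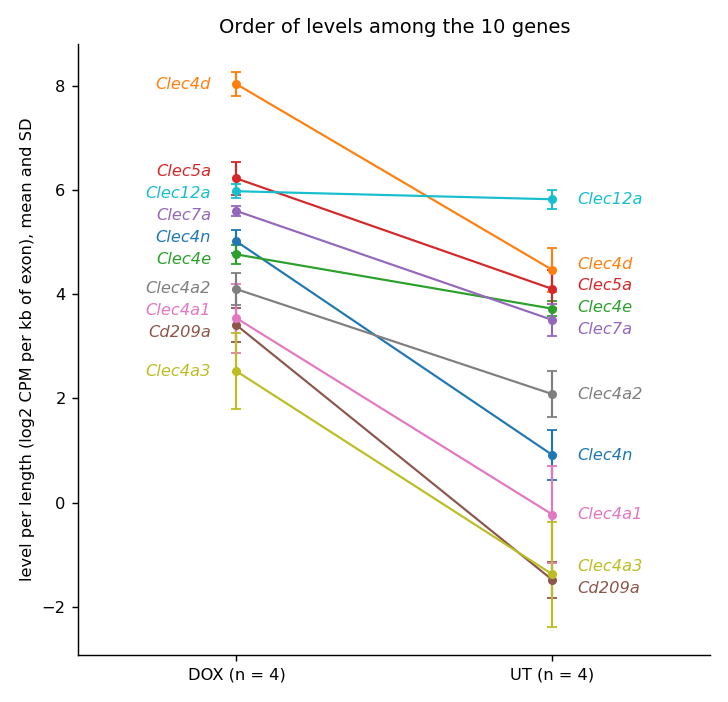
Mean level per length (log2 CPM per kb of exon, vertical axis) with SD over 4 libraries, for DOX (left) and UT (right). The nearly flat line is Clec12a, which the line of Clec4d crosses.

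Of the 10 genes, 9 lie on chromosome 6 of GRCm38, and Cd209a lies on chromosome 8. A stretch of 368 kb from 122921848 to 123289870 holds 9 protein-coding genes of the annotation, all C-type lectins, and all 6 of them that were measured rose. Within it the changes were unequal, from 1.04 for Clec4e at one end to 3.77 for Clec4a1 at the other and 4.10 for Clec4n between them. About 6053 kb further on, Clec12a and Clec7a lie 96.3 kb apart. Reads on Clec7a were 0.340 to 0.419 of those on Clec12a in DOX libraries and 0.0820 to 0.110 in UT libraries.

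**Figure D4:**
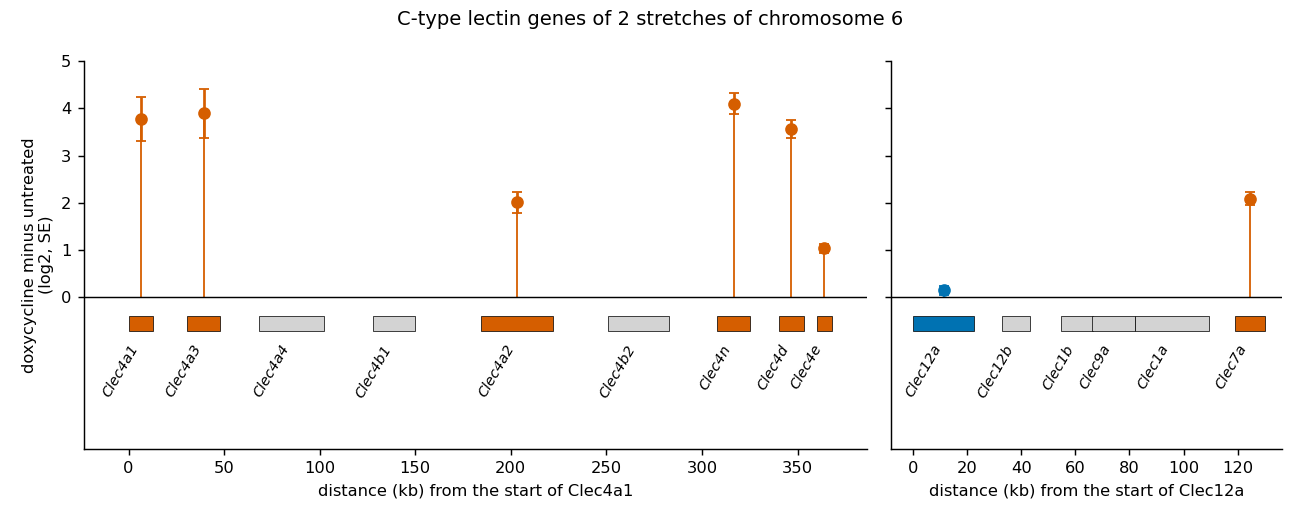
C-type lectin genes along the 2 stretches of chromosome 6 (boxes, to scale, horizontal axis in kb from the first gene) with the log2 difference between DOX and UT and its SE for the measured ones (points, n = 4 and 4). Orange genes passed the test, blue Clec12a did not, and grey genes were not analysed here.

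The profile over the 8 libraries of the experiment separated DOX from UT for nearly all the receptors. The correlation of a gene with the mean profile of the 10 was 0.957 to 0.997 for the 9 genes that rose and 0.567 for Clec12a. Each gene is itself part of that mean, which the 9 genes that rose dominate, so these values add nothing to the calls. The genes most like this mean profile were Ebi3 and Sqrdl (r = 0.999 each), Tpd52 and Btg2 (0.998 each) and Fyb (0.997). Such values were common, as 159 of the 13396 genes outside the set had r above 0.99, and the 8 points share the DOX and UT division, so they describe that division and not a relation within a group.

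The partners of the receptors were followed in lists of genes of the pathway. For all lists, the share over all genes was 31.3% higher and 33.8% lower. With library totals, 2702 of 13406 genes were higher and 6912 lower. Of 15 measured adaptor and proximal kinase genes, 11 were higher and 2 lower (9 and 3 with library totals). Their median change was 0.64, against −0.03 for all genes. Fcer1g, the FcRγ adaptor, was at 704 ± 34.2 CPM in DOX and 349 ± 14.7 CPM in UT libraries, a change of 1.01 ± 0.05 (adjusted p = 6.1e-07). Tyrobp, the DAP12 adaptor, was at 1140.0 ± 84.1 CPM in DOX and 477 ± 45.3 CPM in UT libraries, a change of 1.26 ± 0.08 (adjusted p = 1.4e-06). The 95% intervals of Clec4n, Clec4d and Clec5a lie above those of these adaptors, and the interval of Clec4e, 0.82 to 1.26, overlaps both. Hcst, the DAP10 adaptor, did not pass the test (0.21 ± 0.11, adjusted p = 0.113) and was at −0.03 with library totals.

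Among the kinases, Syk, which relays the signal of the activating receptors, rose by 0.68 ± 0.06 to 409 ± 35.5 CPM in DOX, against 255 ± 10.2 CPM in UT libraries. Fgr and Lyn, Src-family kinases that phosphorylate such motifs, rose by 3.57 ± 0.16 and 0.88 ± 0.07. Fgr is known from mature phagocytes and had 167 CPM in DOX against 14.0 CPM in UT libraries on average. Btk and Pik3r1, the genes of the list that fell, changed by −0.30 ± 0.04 and −0.48 ± 0.05.

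Of 18 measured CARD9 and NF-κB genes, 12 were higher and 2 lower, with a median of 0.26, and with library totals 7 were higher and 5 lower. Card9 itself, the scaffold that SYK signals reach through PKCδ, was lower at 172 CPM in DOX against 207 CPM in UT libraries (−0.27 ± 0.05, adjusted p = 7.0e-04). Prkcd, which encodes PKCδ, rose by 1.04 ± 0.06, and Malt1 and Bcl10, the partners of CARD9, rose by 0.84 ± 0.09 and 0.42 ± 0.05. Relb and Nfkbia, an NF-κB subunit and an inhibitor of NF-κB, rose by 1.38 ± 0.11 and 0.79 ± 0.07.

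Of 9 phosphatase and related genes that dampen these receptors, 6 were higher and 1 lower (5 and 2 with library totals), with a median of 0.49. Ptpn6 and Ptpn11, the phosphatases that inhibitory lectins recruit, moved in opposite directions, by 0.49 ± 0.06 and −0.47 ± 0.05. Inpp5d, the lipid phosphatase SHIP-1, rose by 0.27 ± 0.05 in the main fit. Library totals moved the median change of all genes from −0.03 to −0.27, so a rise this small depends on the scaling. The larger changes were those of Dusp3 (1.16 ± 0.07), Ptpn22 (1.05 ± 0.12) and Ptpn12 (0.73 ± 0.12), which encode other tyrosine phosphatases.

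Of 23 genes listed as outputs or downstream parts of the signalling of these receptors, 16 were measured. Of these, 14 were higher and 0 lower, with a median of 1.88. The counts were 12 and 1 with library totals, and 14 and 1 with quantile normalization. Il6, Il10, Il12b, Il23a, Cxcl1, Csf2 and Il2 were not among the genes measured in this experiment. Cxcl2, a chemokine for neutrophils, was at 14.1 ± 3.15 CPM in DOX and 0.747 ± 0.218 CPM in UT libraries, a change of 4.26 ± 0.26. It was at most 0.932 CPM in UT libraries, so it passed the filter on low genes only through the DOX libraries. The rise of Cxcl2 therefore adds no support to these counts or to the median. Tnf and the chemokine Ccl4 rose by 2.05 ± 0.12 and 2.06 ± 0.21, and the inflammasome genes Nlrp3 and Pycard by 1.84 ± 0.14 and 0.74 ± 0.07. Nfatc2, an NFAT factor of the calcium arm, rose by 1.09 ± 0.09. These genes answer many other receptors too, and whether the lectins were engaged was not tested.

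Of 25 other measured genes named for or holding C-type lectin domains, among 55 listed, 11 were higher and 4 lower, with a median of 0.47. With library totals 9 were higher and 5 lower. Over all genes, 31.3% were higher and 33.8% lower in the main fit. The 10 receptors followed here had a higher median, 2.84, and no test was made of that difference. They were chosen with earlier results of these data known, and Cd209a and Clec4a3 were tabled only through their DOX levels. The higher median therefore cannot be read as a trait of the set. Cd93, a glycoprotein of progenitors and monocytes, rose by 1.16 ± 0.06. Klra2, a Ly49 receptor, rose by 3.56 ± 0.21, and Selp, a selectin of platelets and endothelium, rose by 2.54 ± 0.23 at a low level. Selp was at most 0.814 CPM in UT libraries and was also tabled only through its DOX levels. Its rise adds no support to the counts of this list. Colec12, a scavenger receptor, and Clec16a, which acts in autophagy, rose by 2.02 ± 0.23 and 0.29 ± 0.04 in the main fit. The small rise of Clec16a, like that of Inpp5d, depends on the scaling.

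Markers of several myeloid cells moved with the receptors, where 31.3% of all genes were higher and 33.8% lower. Of 13 monocyte and macrophage markers, 12 were higher, and their summed level was 33263 to 47007 CPM in DOX and 4419 to 7527 CPM in UT libraries. All 12 neutrophil markers were higher, with sums of 5570.1 to 12472 CPM in DOX and 662 to 2292 CPM in UT libraries. Of 10 measured markers of resident spleen macrophages, 8 were higher, with sums of 329.8 to 447 CPM in DOX and 109 to 149 CPM in UT libraries. Of 13 markers of conventional dendritic cells 6 were measured, with 3 higher and 1 lower (3 and 3 with the replicate block). Their sums were 113 to 152 CPM in DOX and 56.9 to 119 CPM in UT libraries. Zbtb46, Xcr1, Batf3, Ccr7, Ccl22, Ccl17 and Fscn1 were not among the genes measured in this experiment. In that list Itgax, Cd83 and Relb rose, and Flt3 fell to 2.24 CPM in DOX, against 27.8 CPM in UT libraries. Of immediate-early and stress genes, 8 of 12 were higher and 1 lower, with sums of 559 to 914 CPM in DOX and 281 to 314 CPM in UT libraries.

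Few of the markers of other spleen cells were among the genes measured. Of 8 B-cell markers 3 were measured, of which 1 was higher and 0 lower (1 and 2 with the replicate block), of 11 markers of T and NK cells 1 was measured, and of 10 erythroid markers 0 were measured. Of 7 megakaryocyte markers 4 were measured, with 1 higher and 2 lower, and of 8 stromal and endothelial markers 2 were measured and both were lower. The measured markers summed to 263 to 349 CPM in DOX and 276 to 474 CPM in UT libraries for B cells, and to 76.5 to 111 CPM in DOX and 293 to 319.9 CPM in UT libraries for stroma and endothelium. The sums were 7.19 to 14.5 CPM in DOX and 23.6 to 49.2 CPM in UT libraries for megakaryocytes, and 0.179 to 0.924 CPM in DOX and 0.767 to 1.54 CPM in UT libraries for T and NK cells. The part of other cells, of stress genes and of the mixture of maturing cells in the change of the receptors was not tested.

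Id2, whose protein blocks E-protein transcription factors, was itself 3.16-fold higher in DOX than in UT libraries. In the second experiment it was 36.2-fold higher in Id2 than in CNT libraries, in 3 of 3 replicates (5.18 ± 0.31, adjusted p = 0.0026). Of the 9 receptors measured there, 0 were higher and 0 lower, where 0.0137% of all 14563 genes were higher and 0% lower, so few genes of any kind passed. With the replicate block 16 genes of the table were higher and 19 lower, none of them a receptor of the set. At an unadjusted p under 0.05 in limma without the block, 0 of the 9 and 2.45% of all genes stood out. The smallest unadjusted p of a receptor in that fit was that of Clec4a1, 0.172. Id2 and CNT libraries overlapped for all 9, whereas 3.18% of all genes were higher and 3.77% lower without overlap. The median change was 0.19, against −0.03 for all genes.

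**Figure D5:**
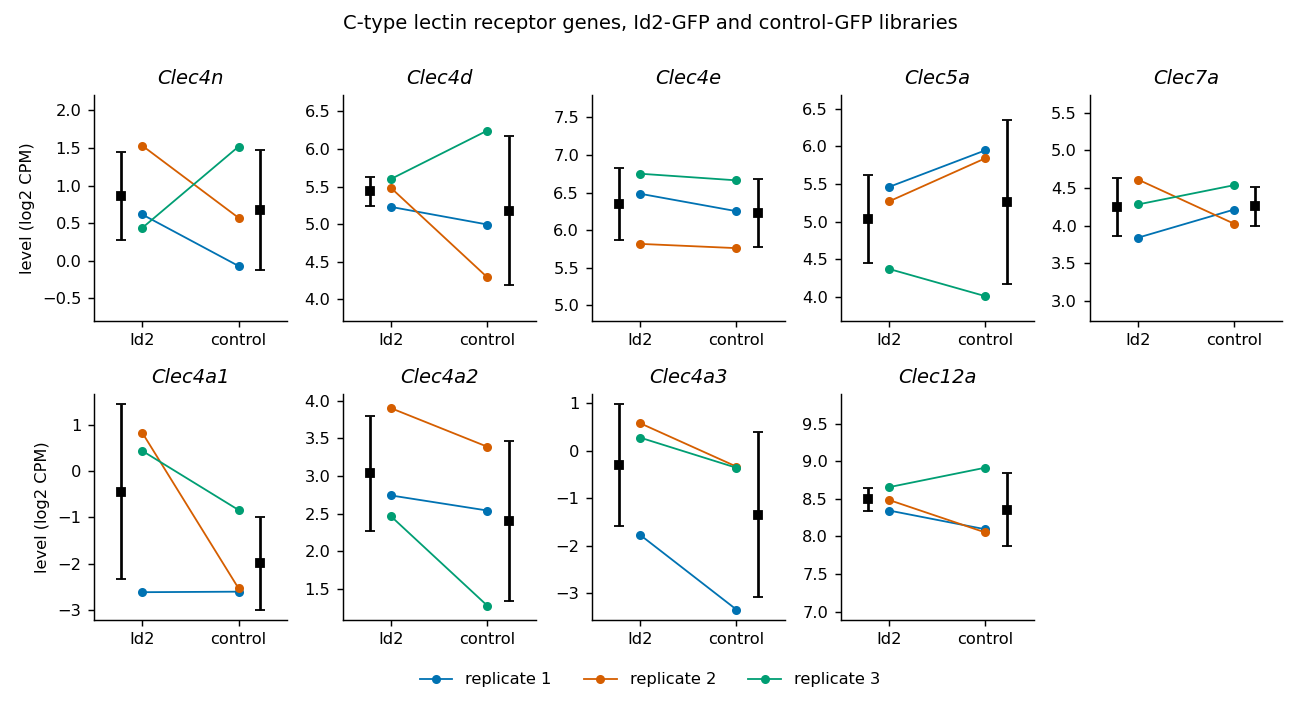
Level of each measured receptor gene (log2 CPM, vertical axis, own range per panel) in Id2 (left) and CNT (right) libraries, with a line joining libraries of the same replicate number and black squares with bars for the mean and SD (n = 3). The groups overlap in all 9 panels, and for Clec5a replicate 3 lies below the others in both groups.

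Clec12a was again the most abundant receptor per length, with 65.5 ± 7.07 CPM per kb in Id2 and 61.6 ± 22.2 CPM per kb in CNT libraries (SD, n = 3 each). It was at 325, 358 and 403 CPM in Id2 libraries, against 273, 265 and 482 CPM in CNT libraries. The CNT library of replicate 3 was the highest of all, and the other CNT libraries were the lowest. The change was 0.14 ± 0.26, with a 95% interval of −0.47 to 0.75.

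Clec7a was at 14.3, 24.5 and 19.5 CPM in Id2 libraries, against 18.6, 16.3 and 23.3 CPM in CNT libraries. The libraries of the groups were mixed in order. The change was −0.01 ± 0.26 with an interval of −0.61 to 0.59, and its sign turned under other scalings. Clec4e was at 89.5, 56.4 and 108 CPM in Id2 libraries, against 76.2, 54.2 and 101 CPM in CNT libraries. Replicate 2 was the lowest of both groups, and each Id2 library was slightly above the CNT library of its number. Its change was 0.13 ± 0.31, with an interval of −0.60 to 0.85.

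Clec4d was at 37.5, 44.7 and 48.6 CPM in Id2 libraries, against 31.9, 19.6 and 75.9 CPM in CNT libraries. The CNT libraries held both the lowest and the highest value, and the change was 0.26 ± 0.45 with an interval of −0.79 to 1.30. Clec5a was at 44.1, 38.6 and 20.7 CPM in Id2 libraries, against 61.8, 57.4 and 16.1 CPM in CNT libraries. Replicate 3 was the lowest of both groups, and the change was −0.23 ± 0.54 with an interval of −1.49 to 1.03. Clec4a2 was at 6.69, 14.9 and 5.52 CPM in Id2 libraries, against 5.82, 10.5 and 2.42 CPM in CNT libraries. It was higher in Id2 in 3 of 3 replicates, with a change of 0.63 ± 0.59 and an interval of −0.74 to 2.01, but leaving out libraries gave 0.07 (without CNT replicate 3) to 1.13.

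Clec4n, Clec4a1 and Clec4a3 were low in this experiment. Clec4n was at 1.53, 2.89 and 1.35 CPM in Id2 libraries, against 0.953, 1.49 and 2.86 CPM in CNT libraries, and its interval was −1.03 to 1.40. Clec4a1 had 2, 25 and 19 reads in Id2 libraries, against 2, 2 and 7 reads in CNT libraries, so 3 of the 6 libraries lay under the floor of 3 reads, and its interval reached from −0.84 to 3.93. Clec4a3 had 4, 21 and 17 reads in Id2 libraries, against 1, 11 and 10 reads in CNT libraries, and its interval was −1.31 to 3.39. It was higher in Id2 in 3 of 3 replicates, and did not pass in limma with the replicate block (adjusted p = 0.813). For Clec4a1 and Clec4a3 a several-fold change would not have been detectable at this depth and spread.

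The summed level of the 9 genes was 132 ± 10.8 CPM per kb in Id2 and 127 ± 39.7 CPM per kb in CNT libraries, on a scale set apart from that of the doxycycline experiment. Set side by side, the change after doxycycline and the upper end of the interval after Id2 were 4.10 and 1.40 for Clec4n, 3.57 and 1.30 for Clec4d, 2.12 and 1.03 for Clec5a, and 2.09 and 0.59 for Clec7a. For these genes the interval after Id2 did not reach the change seen after doxycycline. The same held for Clec4e, with 1.04 and 0.85, and for Clec4a3, with 3.90 and 3.39, the latter on few reads. The intervals of Clec4a1 and Clec12a held their changes after doxycycline, 3.77 and 0.15, and that of Clec4a2 ended at 2.01 beside a change of 2.02. The difference between the experiments was not tested, as the tables were normalized apart and differ in time and handling.

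None of the pathway lists held a gene that passed after Id2, with medians from −0.05 for the 15 adaptor and kinase genes to 0.15 for the 9 phosphatase genes and for the 24 other C-type lectins. Fcer1g and Tyrobp, the adaptors, were among the genes that did not pass. With the replicate block, 0 of the 9 receptors passed as well, with adjusted p-values of 0.758 to 0.992. Of the marker lists, 0 genes passed without the block, and Mpo, Cx3cr1 and Mmp8 passed with it. The 3 measured B-cell markers summed to 138 to 294 CPM in Id2 and 378 to 826 CPM in CNT libraries, whose part in the receptor values was not tested.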

How the data were processed

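The authors deposited log2 values per gene, a table for each experiment, per the file headers. CASAVA 1.8.2, TopHat2, HTSeq, limma and the build mm10 appear, with no roles, in the submitters' processing notes. From the values, each is a log2 CPM of reads plus an offset of 0.5 over a scaled library size: 100% of values gave whole reads within 0.01. Every gene had over 1 CPM, by library totals, in at least 2 libraries, so low genes were already left out. A gene under that level in every UT library was thus tabled only through its DOX values. CPM printed here are the deposited log2 values made linear. Strand is not stated, so reads where genes overlap on both strands have no sure owner.

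Groups were compared within their own table with limma 3.58.1 (R 4.3.3, eBayes with a trend, two-sided, Benjamini-Hochberg over all genes), after a test on simulated data. This fit had no term for the pair or replicate number, and calls are from it unless the replicate block is named. The threshold was an adjusted p of 0.05. Nothing in the labels says that replicates came from separate animals, so p-values measure the spread between these samples, which may be technical. Same-numbered libraries deviated together across genes, so the numbers, from the labels, pair the libraries. The correlation was 0.454 to 0.552 in the doxycycline and 0.472 to 0.581 in the Id2 experiment. Other pairings were all negative, which follows in part from taking deviations from group means and adds no support. Titles of 3 DOX libraries carry an extra R that the labels do not explain. Alternatives were a replicate block, other scalings, a pseudocount, a filter on low values, no variance trend, voom weights and leaving out libraries.

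The members and lists were chosen with earlier results of these data known. Named genes were the members, the label checks, up to 6 genes per pathway list with the smallest p, Fcer1g, Tyrobp, Hcst, Syk and Card9, and the 5 genes closest in profile. Genes named from marker lists, and Btk and Pik3r1, were chosen after their values were seen. Some genes under this rule are not reported here. Coordinates and exon lengths are from GENCODE M21 on GRCm38, and transcripts were compared with blastn 2.17.0. Python 3.11.15 and matplotlib 3.10.9 made tables and plots. Reads are not independent molecules, so read floors (3 reads) cover counting error only.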

Additional observations from a re-analysis of the deposited data

How the results depend on the processing

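The 9 receptors that rose after doxycycline kept their direction and call under every alternative in which they were fitted. The number called higher was 8 to 10: 8 where Clec4a3 fell under the filter on low values, and 10 with the replicate block, without UT replicate 2 and without pair 2, where Clec12a passed. The pairing changed no other receptor call, and over all genes in the Id2 experiment the block gave 16 higher and 19 lower against 2 and 0. Library totals gave 2702 higher and 6912 lower genes after doxycycline and a change of −0.0857 for Clec12a. Keeping only genes with a mean log2 value of at least 1 gave 1 higher gene after Id2, and leaving out libraries gave 0 to 2 higher and 0 to 1 lower. After Id2 the changes of Clec7a were 0.0181 with quantile normalization and 0.0395 with library totals. Leaving out libraries gave −0.0096 to 0.42 for Clec12a, −0.20 to 0.79 for Clec4d, −0.11 to 0.39 for Clec4e, −0.20 to 0.82 for Clec4n, −0.86 to 0.11 for Clec5a and −0.32 to 0.19 for Clec7a, so those signs rest on single libraries. Clec4a1 kept its sign at 0.63 to 2.63, Clec4a2 at 0.07 to 1.13 and Clec4a3 at 0.04 to 1.77. The cause was not tested in these cases. The planned edgeR quasi-likelihood test was not run, since the deposited values are on a log2 scale. Voom weights on the recovered reads were used instead, chosen after seeing the data, and gave 9 and 0 receptor calls in the doxycycline and Id2 experiments. With 3 libraries a group, the low reads of Clec4a1, Clec4a3 and Clec4n limit what the Id2 comparison can show.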

Other observations

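Among the other C-type lectin genes after Id2, the genes with the smallest p did not pass the adjusted test. Their libraries did not overlap, as for 3.18% of all genes in the higher and 3.77% in the lower direction. Picking genes by p favours libraries that do not overlap, so this adds no support. Thbd, which encodes thrombomodulin, averaged 16.7 ± 4.60 CPM in Id2 and 34.8 ± 8.33 CPM in CNT libraries (SD, n = 3 each), a change of −1.07 ± 0.28. Clec10a, a macrophage galactose lectin, averaged 21.1 ± 9.98 CPM in Id2 and 8.71 ± 1.78 CPM in CNT libraries, a change of 1.19 ± 0.36. Clec2i, a ligand of NK cell receptors, averaged 219 ± 65.7 CPM in Id2 and 126 ± 7.70 CPM in CNT libraries, a change of 0.76 ± 0.23. The limma adjusted p was 0.998 for each of the 3.

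Among the markers after Id2, chosen after their values were seen, Mpo, an enzyme of early granules, and Cx3cr1, a chemokine receptor of monocytes, were lower with the replicate block (−1.74 and −1.38, adjusted p = 0.036 each). Mmp8, a collagenase of neutrophils, was higher with the replicate block (1.96, adjusted p = 0.010). None of these passed without the block.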
